A study of Homo sapiens with 12 samples.

Results

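The interferon-stimulated genes are the genes that a cell turns on when an interferon binds its receptor, and their transcripts are described here in MV4-11 cells. A list of 45 such genes was used, picked by name with no threshold on a measured value, though with earlier results of these data known. They are 45 of the 58051 rows of the deposited count table, and 44 of them were among the 14214 genes that had enough reads to be tested. The remaining one, GBP1, a GTPase induced by interferon gamma, had 14 reads over all 12 libraries, with 0 to 3 in any library. MV4-11 is an established human acute myeloid leukaemia line with a rearranged KMT2A gene and an internally duplicated FLT3 receptor. The cells had received BSJ-03-123 at 200 nM, YKL-06-102 at 200 nM, Palbociclib at 200 nM or the vehicle DMSO at 0.1% for 6 h, and each of these 4 groups had 3 libraries of polyadenylated RNA. Palbociclib is a catalytic inhibitor of the cell cycle kinases CDK4 and CDK6, and by the submitters' account BSJ-03-123 and YKL-06-102 are conjugates specific for CDK6. No label lists an added interferon in any group.

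Type I and type III interferons act through receptors that carry the kinases JAK1 and TYK2, which phosphorylate STAT proteins. Among them STAT2 joins IRF9 in a complex that recognises the interferon-stimulated response element, a DNA sequence near the start of many antiviral genes. Interferon gamma uses JAK1 and JAK2 and acts through another sequence, the gamma-activated site. The induced genes include sensors of foreign nucleic acid (DDX58, which encodes RIG-I, and IFIH1, which encodes MDA5), proteins that bind or cut viral RNA (the IFIT and OAS families, EIF2AK2, ADAR), membrane proteins that hinder viral entry or release (the IFITM family and BST2) and transcription factors of the pathway itself (STAT2, IRF1, IRF7, IRF9).

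Many members carried the core of the response element in their promoter sequence. Promoter windows of 300 bases, from 250 bases before to 50 after a gene's start, were available in RefSeq (GRCh38.p14) for 37 of the 45 members, and the first listed window was read for the 11 members that had more than 1. The core of the response element, GAAANNGAAA on either strand (TTTCNNTTTC when read on the other), occurred in 22 of these 37 windows (59.5%), against 1255 of all 35116 windows (3.57%). The core of the gamma-activated site, TTCNNNGAA, occurred in 10 of 37 (27.0%), against 2689 of all windows (7.66%). The 2 cores were searched separately and a window can hold both. The sequences shown here are those around the element in 5 members that differed between compounds and in IFIT1 and ISG15, textbook responders to type I interferon that did not pass a test here. Each is written 5′ to 3′ on the strand of its gene with 10 bases on either side, and capitals mark the match.
IFITM3, chr11:320893-320922, minus strand: caaatgccagGAAAAGGAAActgttgagaa
IFITM3, chr11:320876-320905, minus strand: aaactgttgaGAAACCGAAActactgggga
OAS3, chr12:112938321-112938350, plus strand: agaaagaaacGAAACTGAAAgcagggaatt
OAS3, chr12:112938452-112938481, plus strand: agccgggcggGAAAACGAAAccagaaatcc
PARP14, chr3:122680800-122680829, plus strand: tccaggaaacGAAAGCGAAAgagtcaaagt
BST2, chr19:17405735-17405770, minus strand: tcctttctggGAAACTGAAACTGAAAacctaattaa
SAMD9, chr7:93118096-93118125, minus strand: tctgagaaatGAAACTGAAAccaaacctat
IFIT1, chr10:89392497-89392526, plus strand: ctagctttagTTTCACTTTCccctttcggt
IFIT1, chr10:89392510-89392539, plus strand: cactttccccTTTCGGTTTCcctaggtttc
ISG15, chr1:1013374-1013409, plus strand: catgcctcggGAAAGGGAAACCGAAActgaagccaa
The IFITM3, OAS3 and IFIT1 windows each hold the core as separate matches, and in BST2 and ISG15 overlapping matches run together. Other members also differed between compounds. Of these, IFI44L and IFI6 held matches that are not shown, and IFITM2 and OAS2 had no window. The windows of SAMD9L, CMPK2, IRF1, RSAD2, IFI16 and DDX58 held no match to the response element core. That of STAT2, which did not differ between compounds, held none either. The IRF1 window held 1 match to the gamma-activated site core. A match is a description of these letters and was not tested for binding.

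Library totals ranged from 18764307 to 25539858 counts. DMSO replicate 2 stood farthest from its group: its counts differed from those of DMSO replicates 1 and 3 by a chi-square of 5.71 and 8.63 per degree of freedom, where all other pairs of replicates lay between 1.71 and 2.91. Whether replicates came from separate cultures is not stated in the labels, and the p-values then reflect only the spread of these libraries, which could be technical. The sources used here do not state whether reads were counted by strand, and several members share exon bases with another gene. IFITM1 and IFITM2 share 351 bases on the same strand, and IRF9 shares 1838 of its 3794 with the overlapping locus AL136295.5, which had more reads than IRF9 itself (377 and 139 in all), so those levels are uncertain. IRF1 shares 1716 exon bases with C5orf56 on the opposite strand (10111 and 503 reads in all), and IFITM3 shares 287 with AC136475.5 (2898 and 65). The IFITM, IFIT and OAS families, SAMD9 and SAMD9L, and MX1 and MX2 are paralogs whose reads could be split between copies. For 9 markers of a myeloid leukaemia line, 8 of them tested, the summed level was 2108 to 2128 CPM (read counts scaled to the library size with TMM factors) with BSJ-03-123, 2444 to 2471 with YKL-06-102, 2141 to 2173 with Palbociclib and 1972 to 2008 with DMSO. Of the 8 tested, 3, 6 and 4 rose with the compounds in the same order, and 0 fell. Over all tested genes 12.4%, 15.6% and 15.6% rose, and 15.7%, 21.3% and 17.6% fell, so these markers were called higher more often than genes in general. Of plasmacytoid dendritic cell markers, which belong to the cell type that makes most type I interferon, CLEC4C was at 0 in every library, and the list's sum was 56.8 to 60.9 CPM with BSJ-03-123, 56.1 to 58.9 with YKL-06-102, 60.1 to 62.8 with Palbociclib and 49.7 to 51.4 with DMSO. Most of that sum was IL3RA (mean 42.9 CPM with DMSO), with TCF4 at 7.70, while LILRA4 had 19 reads over all 12 libraries. Of its 2 tested genes, IL3RA rose with each compound and TCF4 with BSJ-03-123 only. Among markers of other lineages, CD2, MS4A1, HBB, PF4, EPCAM, KRT19, COL3A1 and DCN were at 0 in all 12 libraries, while others were present. Most of the lymphoid sum was NKG7 (mean 47.1 CPM with DMSO) and most of the epithelial and stromal sum PECAM1 (137 CPM). The 8 lymphoid markers summed to 49.15 to 52.5 CPM with BSJ-03-123, 53.5 to 57.6 with YKL-06-102, 47.8 to 51.6 with Palbociclib and 45.7 to 53.7 with DMSO, and of 4 tested 1 rose, NKG7 with YKL-06-102 (log2 fold change against DMSO 0.17, lost without DMSO replicate 1 or YKL-06-102 replicate 1, 0.12 to 0.27 with a library left out). The 10 epithelial and stromal markers summed to 161 to 164 CPM with BSJ-03-123, 137 to 144 with YKL-06-102, 165 to 172 with Palbociclib and 153.5 to 155 with DMSO. Of their 3 tested genes KRT18 rose with BSJ-03-123 (log2 fold change 0.23, lost without DMSO replicate 2 or 3 or BSJ-03-123 replicate 1 or 2, 0.17 to 0.27 with a library left out) and Palbociclib (0.27, lost without its replicate 1, 0.23 to 0.31). PECAM1, which leukocytes also express, fell with YKL-06-102 (log2 fold change -0.17) and rose with Palbociclib (0.13). The erythroid and megakaryocyte markers summed to 11.9 to 13.2 CPM with BSJ-03-123, 12.4 to 13.8 with YKL-06-102, 12.3 to 13.6 with Palbociclib and 11.1 to 12.7 with DMSO, and the 1 tested, ITGA2B, did not pass with any compound. The part of these marker changes in the results below was not tested, and in bulk RNA fewer cells of a type and less RNA per cell cannot be told apart.

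With DMSO the members spanned a wide range of levels, compared here per kb of annotated exon. BST2, the membrane tether tetherin, was highest, at 198 ± 10.1 CPM per kb (SD, n = 3), followed by IFITM2 at 149.5 ± 9.32, IFITM1 at 105 ± 3.83, the RNA-editing enzyme ADAR at 44.8 ± 0.358 and the ubiquitin-like modifier ISG15 at 28.8 ± 1.87 CPM per kb. IFITM3, the best known of the entry-blocking IFITM proteins, was at 5.69 ± 0.434 CPM per kb, far under its paralogs IFITM1 and IFITM2. The transcription factors were ordered IRF7 (16.5 ± 1.06 CPM per kb), STAT2 (10.2 ± 1.01), IRF1 (5.15 ± 0.107) and IRF9 (0.119 ± 0.055), the last near the bottom of the list. IFI27, IFIT5, ISG20, SP110, IRF9, EPSTI1 and USP18 had an average log2 CPM below 2, and the other 37 tested members were at or above it.

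**Figure D1:**
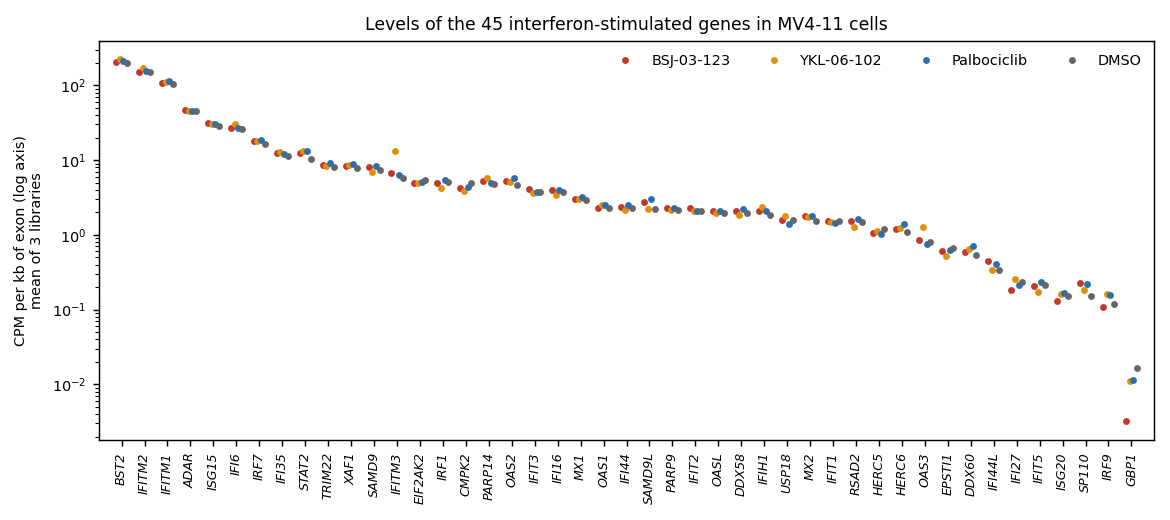
Level of each of the 45 genes in CPM per kb of exon on a log axis, as the mean of 3 libraries for each compound and DMSO; genes are ordered by their DMSO level. The 4 groups nearly coincide for most genes, IFITM3 and OAS3 with YKL-06-102 lie above their other points, and GBP1, with 14 reads in all, is at the bottom.

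YKL-06-102 gave the largest changes of single members. Of the 44 tested members 12 rose (27.3%) and 3 fell (6.82%) against DMSO, where 15.6% of all tested genes rose and 21.3% fell (edgeR quasi-likelihood test, p-values adjusted by Benjamini-Hochberg and called below 0.05). The median log2 fold change was 0.05 over the members and -0.02 over all tested genes, and 2 members, IFITM3 and OAS3, changed by at least 1.5-fold. Every YKL-06-102 library exceeded every DMSO library in 11 members and lay below it in 6, against 19.5% and 25.2% of all tested genes. The members that rose were IFITM3, OAS3, STAT2, IFIH1, PARP14, IFI6, BST2, IFITM2, IFI35, MX2, XAF1 and IRF7. CMPK2, IRF1 and EIF2AK2 fell.

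Among the membrane restriction factors 3 of 4 rose with YKL-06-102. IFITM3, whose protein sits in endosomal membranes and blocks viral fusion, had 18.2, 17.1 and 17.6 CPM with YKL-06-102 against 7.01, 8.10 and 7.92 CPM with DMSO. All of its YKL-06-102 libraries lay above every DMSO library, and the groups did not overlap. The log2 fold change was 1.20 ± 0.075 (SE, 95% interval 1.04 to 1.35, edgeR adjusted p = 2.05e-13), a 2.29-fold difference. BST2, which holds budding virions at the cell surface, had 259, 253 and 245 CPM with YKL-06-102 against 224, 231 and 209 CPM with DMSO. Its groups did not overlap either, though the change was small (0.19 ± 0.034, edgeR adjusted p = 4.83e-05). IFITM2 rose by 0.18 ± 0.041 (edgeR adjusted p = 7.06e-04), while IFITM1, at 113, 118 and 122 CPM with YKL-06-102 and 114, 118 and 110 CPM with DMSO, overlapped and did not pass the test (0.05). IFITM3 lies in GRCh38 at chromosome 11, 319669 to 327537, minus strand (ENSG00000142089), and BST2 at chromosome 19, 17402939 to 17405648, minus strand (ENSG00000130303).

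In the group of OAS and other RNA-directed enzymes 1 of 7 genes rose and 1 fell with YKL-06-102. OAS3, which makes the antiviral messenger 2-5A, had 9.98, 11.2 and 10.1 CPM with YKL-06-102 against 7.22, 6.89 and 5.96 CPM with DMSO. Every YKL-06-102 library was above every DMSO library (0.63 ± 0.097, edgeR adjusted p = 4.85e-06, 1.55-fold). Its paralogs OAS1, OAS2 and OASL did not pass the test, with log2 fold changes of 0.13, 0.12 and -0.01. EIF2AK2, which encodes the RNA-activated kinase PKR, had 53.1, 52.9 and 54.1 CPM with YKL-06-102 against 61.3, 54.3 and 59.9 CPM with DMSO. It was lower by a small margin (-0.13 ± 0.049, edgeR adjusted p = 0.0411), a call made in only 3 of 14 alternative settings (-0.13 to -0.09 in those that lost it). ADAR, at 438, 419 and 448 CPM with YKL-06-102 against 437, 430 and 434 CPM with DMSO, did not pass it. OAS3 lies in GRCh38 at chromosome 12, 112938352 to 112973249, plus strand (ENSG00000111331).

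The transcription factors of the pathway moved in different directions with YKL-06-102. STAT2, the interferon-specific STAT, had 76.9, 80.0 and 83.6 CPM with YKL-06-102 against 69.2, 57.2 and 61.0 CPM with DMSO. All YKL-06-102 libraries exceeded all DMSO libraries (0.36 ± 0.052, edgeR adjusted p = 2.11e-06). IRF1, an early interferon target and itself an activator of antiviral genes, had 32.2, 31.9 and 35.1 CPM with YKL-06-102 against 40.8, 40.4 and 39.2 CPM with DMSO. Here the order was the opposite, with every YKL-06-102 library below every DMSO library (-0.28 ± 0.049, edgeR adjusted p = 3.52e-05). IRF7, which drives interferon alpha genes, had 45.8, 46.7 and 51.1 CPM with YKL-06-102 against 45.4, 44.8 and 40.3 CPM with DMSO. The groups did not overlap, but their nearest libraries lay close together. Its increase (0.14 ± 0.050, edgeR adjusted p = 0.0329) was lost without DMSO replicate 3 (0.09) or YKL-06-102 replicate 3 (0.10). IRF9 had 0.450, 0.682 and 0.6996 CPM with YKL-06-102 against 0.680, 0.403 and 0.271 CPM with DMSO and did not pass the test (0.44 ± 0.37). STAT2 lies in GRCh38 at chromosome 12, 56341597 to 56360155, minus strand (ENSG00000170581), and IRF1 at chromosome 5, 132481609 to 132490798, minus strand (ENSG00000125347).

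Of the nucleic acid sensors IFIH1 rose, to 11.8, 11.98 and 11.97 CPM with YKL-06-102 against 9.68, 9.51 and 8.95 CPM with DMSO (0.34 ± 0.090, edgeR adjusted p = 0.00312). The groups did not overlap, while DDX58, DDX60 and IFI16 did not pass the test. PARP14, an ADP-ribosyltransferase, had 59.3, 60.6 and 62.2 CPM with YKL-06-102 against 52.8, 49.2 and 48.5 CPM with DMSO, again without overlap (0.28 ± 0.048, edgeR adjusted p = 3.63e-05). CMPK2, a mitochondrial nucleotide kinase, had 15.9, 15.7 and 18.1 CPM with YKL-06-102 against 22.3, 20.4 and 20.1 CPM with DMSO, all lower (-0.33 ± 0.068, edgeR adjusted p = 2.42e-04). IFI6, a mitochondrial and ER membrane protein, had 28.6, 24.1 and 26.3 CPM with YKL-06-102 against 22.6, 25.1 and 20.1 CPM with DMSO, so the groups overlapped. Its call (0.21 ± 0.074, edgeR adjusted p = 0.0251) was lost without DMSO replicate 1 (0.20), DMSO replicate 3 (0.14) or YKL-06-102 replicate 1 (0.17), and the value was 0.32 without DMSO replicate 2. A further 3 small increases also rested on single libraries. MX2 (0.17 ± 0.065) was lost without DMSO replicate 1 (0.19), DMSO replicate 2 (0.14) or YKL-06-102 replicate 3 (0.12), XAF1 (0.16 ± 0.060) without DMSO replicate 2 (0.10) or YKL-06-102 replicate 3 (0.14), and IFI35 (0.18 ± 0.062) without DMSO replicate 3 (0.15) or YKL-06-102 replicate 2 (0.18).

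Across all 14 alternative settings, 9 of the 15 member calls with YKL-06-102 were made every time, those of IFITM3, OAS3, STAT2, IFIH1, PARP14, BST2, IFITM2, IRF1 and CMPK2. Without DMSO replicate 2, 11 members were higher and 4 lower, the lower ones now including EPSTI1 (-0.46).

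Fewer members were called with BSJ-03-123 than with YKL-06-102, though the counts themselves were not tested against each other. The same order held over all tested genes, with 1763 higher and 2234 lower for BSJ-03-123 and 2215 and 3034 for YKL-06-102. Of the 44 members 6 rose (13.6%) and 1 fell (2.27%) with BSJ-03-123 against DMSO, where 12.4% of all tested genes rose and 15.7% fell. The median log2 fold change was 0.08 over the members and 0.01 over all tested genes. The largest change in either direction, called or not, was 0.58, that of the low-level gene SP110 (0.58 ± 0.23, edgeR adjusted p = 0.0573). All BSJ-03-123 libraries exceeded all DMSO libraries in 15 members and lay below them in 1, against 17.8% and 19.4% of all tested genes. The members that rose were IFI44L, SAMD9L, STAT2, MX2, OAS2 and SAMD9, and CMPK2 fell.

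STAT2 was again among the genes that rose, with 75.5, 72.3 and 79.3 CPM with BSJ-03-123 against 69.2, 57.2 and 61.0 CPM with DMSO. Its groups did not overlap (0.28 ± 0.053, edgeR adjusted p = 1.58e-04), and it was the only member call of this contrast made under all 14 alternatives. SAMD9, a cytoplasmic antiviral protein and growth suppressor, had 54.4, 57.8 and 55.2 CPM with BSJ-03-123 against 51.5, 48.8 and 49.2 CPM with DMSO (0.17 ± 0.045, edgeR adjusted p = 0.00639). Its neighbour and paralog SAMD9L had 19.4, 18.9 and 20.3 CPM with BSJ-03-123 against 16.7, 13.9 and 17.1 CPM with DMSO (0.31 ± 0.090, edgeR adjusted p = 0.00993). Both genes stood above DMSO in every library, but SAMD9 was lost without BSJ-03-123 replicate 2 (0.13), and SAMD9L without DMSO replicate 2 (0.21) or BSJ-03-123 replicate 3 (0.28). MX2, a nuclear-pore GTPase that restricts HIV-1, had 24.1, 23.5 and 23.3 CPM with BSJ-03-123 against 20.6, 18.8 and 21.0 CPM with DMSO (0.24 ± 0.066, edgeR adjusted p = 0.00778), and its call was lost without DMSO replicate 2 (0.18). SAMD9 lies in GRCh38 at chromosome 7, 93099513 to 93118023, and SAMD9L at chromosome 7, 93130055 to 93148369, both on the minus strand (ENSG00000205413 and ENSG00000177409).

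The other calls with BSJ-03-123 were weaker. IFI44L had 4.86, 4.54 and 4.43 CPM with BSJ-03-123 against 3.87, 3.43 and 3.25 CPM with DMSO (0.39 ± 0.14, edgeR adjusted p = 0.036). OAS2 had 34.8, 32.4 and 32.4 CPM with BSJ-03-123 against 30.3, 28.3 and 29.4 CPM with DMSO (0.18 ± 0.065, edgeR adjusted p = 0.0372). CMPK2 had 19.2, 16.8 and 18.1 CPM with BSJ-03-123 against 22.3, 20.4 and 20.1 CPM with DMSO (-0.21 ± 0.069, edgeR adjusted p = 0.0194). In none of these genes did the groups overlap. The call of CMPK2 was lost without DMSO replicate 1 (-0.18) or BSJ-03-123 replicate 2 (-0.17), that of OAS2 without DMSO replicate 2 (0.15), DMSO replicate 3 (0.18) or any 1 of the BSJ-03-123 libraries (0.14 to 0.20), and that of IFI44L without DMSO replicate 2 (0.37), DMSO replicate 3 (0.34) or any 1 of the BSJ-03-123 libraries (0.35 to 0.42).

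IRF1 and IRF7 did not pass the test with BSJ-03-123. IRF1 had 38.3, 39.3 and 37.7 CPM with BSJ-03-123 against 40.8, 40.4 and 39.2 CPM with DMSO (-0.06, edgeR adjusted p = 0.371). IRF7 had 45.4, 46.8 and 48.0 CPM with BSJ-03-123 against 45.4, 44.8 and 40.3 CPM with DMSO (0.10, edgeR adjusted p = 0.149). IRF9 had 0.301, 0.478 and 0.471 CPM with BSJ-03-123 against 0.680, 0.403 and 0.271 CPM with DMSO (-0.10 ± 0.41). IFITM3 had 9.27, 8.94 and 8.67 CPM with BSJ-03-123 against 7.01, 8.10 and 7.92 CPM with DMSO, above in every library but short of the threshold (0.22 ± 0.087, edgeR adjusted p = 0.0621). Without DMSO replicate 2 the count of members that rose was 3 (STAT2, SAMD9 and BST2) and of those that fell 2 (CMPK2 at -0.24 and EIF2AK2 at -0.17), and without BSJ-03-123 replicate 3 also 3 rose. When counts were scaled by library totals alone 14 rose and 0 fell, and over all tested genes 2852 rose and 1766 fell, in place of 1763 and 2234.

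Palbociclib raised 12 of the 44 members (27.3%) and lowered 0, with 15.6% of all tested genes raised and 17.6% lowered. At an unadjusted p below 0.05, 15 members differed in the edgeR quasi-likelihood test, with CMPK2 the single one lower (-0.14), and limma-voom and DESeq2 also called 0 members lower (13 and 12 members at an unadjusted p below 0.05). The median log2 fold change was 0.12 over the members and 0.01 over all tested genes. In 11 members all Palbociclib libraries exceeded all DMSO libraries and in 1 all lay below, against 20.7% and 21.1% of all tested genes. The members that rose were SAMD9L, DDX60, STAT2, HERC6, OAS2, MX2, SAMD9, XAF1, TRIM22, IRF7, IFITM1 and BST2.

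SAMD9L and SAMD9 were both higher with Palbociclib. SAMD9L had 24.6, 20.8 and 19.3 CPM with Palbociclib against 16.7, 13.9 and 17.1 CPM with DMSO (0.46 ± 0.087, edgeR adjusted p = 1.35e-04). SAMD9 had 60.1, 58.2 and 55.4 CPM with Palbociclib against 51.5, 48.8 and 49.2 CPM with DMSO (0.22 ± 0.045, edgeR adjusted p = 3.02e-04). In both genes the lowest Palbociclib library was above the highest DMSO library. OAS2, which like OAS3 makes 2-5A, had 38.5, 35.4 and 33.1 CPM with Palbociclib against 30.3, 28.3 and 29.4 CPM with DMSO (0.29 ± 0.064, edgeR adjusted p = 7.41e-04). MX2 had 23.9, 24.0 and 22.3 CPM with Palbociclib against 20.6, 18.8 and 21.0 CPM with DMSO (0.22 ± 0.066, edgeR adjusted p = 0.00872). Neither gene's groups overlapped, but the MX2 call was lost without DMSO replicate 2 (0.17), as with BSJ-03-123.

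Of the transcription factors STAT2 and IRF7 rose with Palbociclib. STAT2 had 85.4, 80.1 and 79.9 CPM with Palbociclib against 69.2, 57.2 and 61.0 CPM with DMSO, without overlap (0.39 ± 0.053, edgeR adjusted p = 8.28e-07). IRF7 had 49.6, 48.3 and 48.9 CPM with Palbociclib against 45.4, 44.8 and 40.3 CPM with DMSO (0.17 ± 0.050, edgeR adjusted p = 0.0105), and was lost without DMSO replicate 3 (0.11). IRF1, with 41.0, 40.6 and 43.4 CPM with Palbociclib against 40.8, 40.4 and 39.2 CPM with DMSO, did not pass the test (0.05, edgeR adjusted p = 0.441). IRF9 had 0.852, 0.441 and 0.482 CPM with Palbociclib against 0.680, 0.403 and 0.271 CPM with DMSO and did not pass it either (0.42 ± 0.37).

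The remaining increases with Palbociclib were small or came from uneven libraries. HERC6, a relative of the ISG15 ligase HERC5, had 8.04, 7.28 and 8.72 CPM with Palbociclib against 6.70, 5.93 and 6.24 CPM with DMSO (0.35 ± 0.10, edgeR adjusted p = 0.00979), lost without Palbociclib replicate 3 (0.29). DDX60, a helicase linked to RNA sensing, had 5.07, 5.61 and 3.52 CPM with Palbociclib against 3.77, 3.55 and 3.47 CPM with DMSO (0.41 ± 0.15, edgeR adjusted p = 0.0357). Its Palbociclib replicate 3 lay within the DMSO range, and the call was made in 6 of 14 alternatives, being lost without any 1 DMSO library (0.38 to 0.43) and without Palbociclib replicate 1 (0.35) or 2 (0.27). IFITM1 (0.12 ± 0.039) was lost without DMSO replicate 1 (0.12), DMSO replicate 3 (0.09) or Palbociclib replicate 2 (0.11), and BST2 (0.11 ± 0.034) without DMSO replicate 3 (0.07) or Palbociclib replicate 3 (0.10). XAF1 (0.20 ± 0.060) and TRIM22 (0.19 ± 0.058) had overlapping groups, XAF1 being lost without DMSO replicate 2 (0.12) or Palbociclib replicate 1 (0.15) and TRIM22 without Palbociclib replicate 1 (0.14) or 2 (0.17). The calls of STAT2, SAMD9L, SAMD9 and OAS2 were made in all 14 alternatives. Without DMSO replicate 2, 10 members rose and EIF2AK2 fell (-0.13), and with library totals 16 rose and 0 fell, beside 3392 genes raised and 1950 lowered in the whole table, in place of 2224 and 2507.

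**Figure D2:**
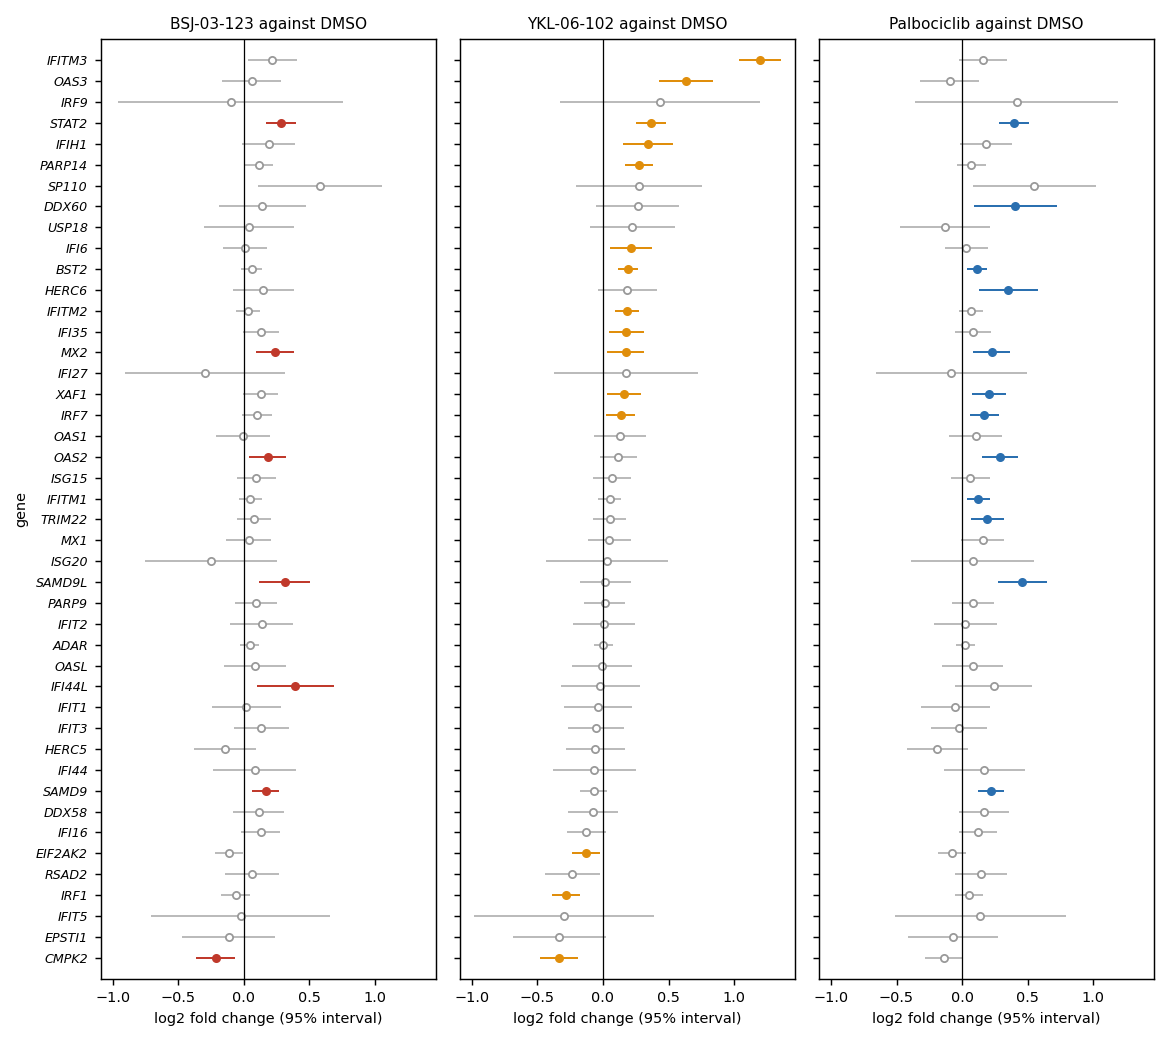
Log2 fold change of the 44 tested genes with each compound against DMSO, with the 95% interval; filled coloured points passed the edgeR quasi-likelihood test at an adjusted p below 0.05 and open grey points did not. IFITM3 (1.20) and OAS3 (0.63) stand out with YKL-06-102, most other points lie near 0, and the widest intervals belong to genes of low level such as IRF9 and IFIT5.

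The 3 contrasts above share their DMSO libraries, so similar values among them are not independent. STAT2 and MX2 were the 2 members called higher with all 3 compounds. SAMD9L, SAMD9 and OAS2 were called higher with BSJ-03-123 and Palbociclib, and their YKL-06-102 values were 0.02, -0.07 and 0.12. XAF1, IRF7 and BST2 were called higher with YKL-06-102 and Palbociclib, and CMPK2 lower with BSJ-03-123 and YKL-06-102. In total 23 members were called in at least 1 contrast with DMSO and 21 in none. The matching share over all tested genes was not counted, so these totals do not set the members apart from other genes. In a single contrast 12.4% to 15.6% of all tested genes rose and 15.7% to 21.3% fell.

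Some genes used as readouts of a type I interferon response had no call against DMSO, namely all 4 IFIT genes, ISG15 and MX1. Of these, IFIT1, ISG15 and MX1 are shown, picked after their values were seen, so they do not stand for the list. Other members were called higher, such as IFI44L with BSJ-03-123, IFI6 with YKL-06-102, OAS2 with BSJ-03-123 and Palbociclib, and MX2 with all 3 compounds. IFIT1 had 8.42, 6.93 and 5.94 CPM with BSJ-03-123, 7.45, 6.14 and 6.83 CPM with YKL-06-102, 7.87, 6.22 and 5.97 CPM with Palbociclib and 7.48, 7.22 and 6.18 CPM with DMSO. ISG15 had 27.8, 29.9 and 29.5 CPM with BSJ-03-123, 29.9, 25.1 and 30.9 CPM with YKL-06-102, 27.3, 30.3 and 27.9 CPM with Palbociclib and 27.1, 28.9 and 25.4 CPM with DMSO. MX1 had 27.8, 24.1 and 25.2 CPM with BSJ-03-123, 24.9, 24.6 and 28.2 CPM with YKL-06-102, 31.8, 26.9 and 24.7 CPM with Palbociclib and 26.6, 23.7 and 25.1 CPM with DMSO. In all 3 genes every compound overlapped DMSO, and the log2 fold changes lay between -0.05 and 0.16. Of the 44 members, the 95% interval lay within 1.5-fold of DMSO in either direction for 38 members after BSJ-03-123, 37 after YKL-06-102 and 38 after Palbociclib. A change smaller than that is not excluded for these genes.

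**Figure D3:**
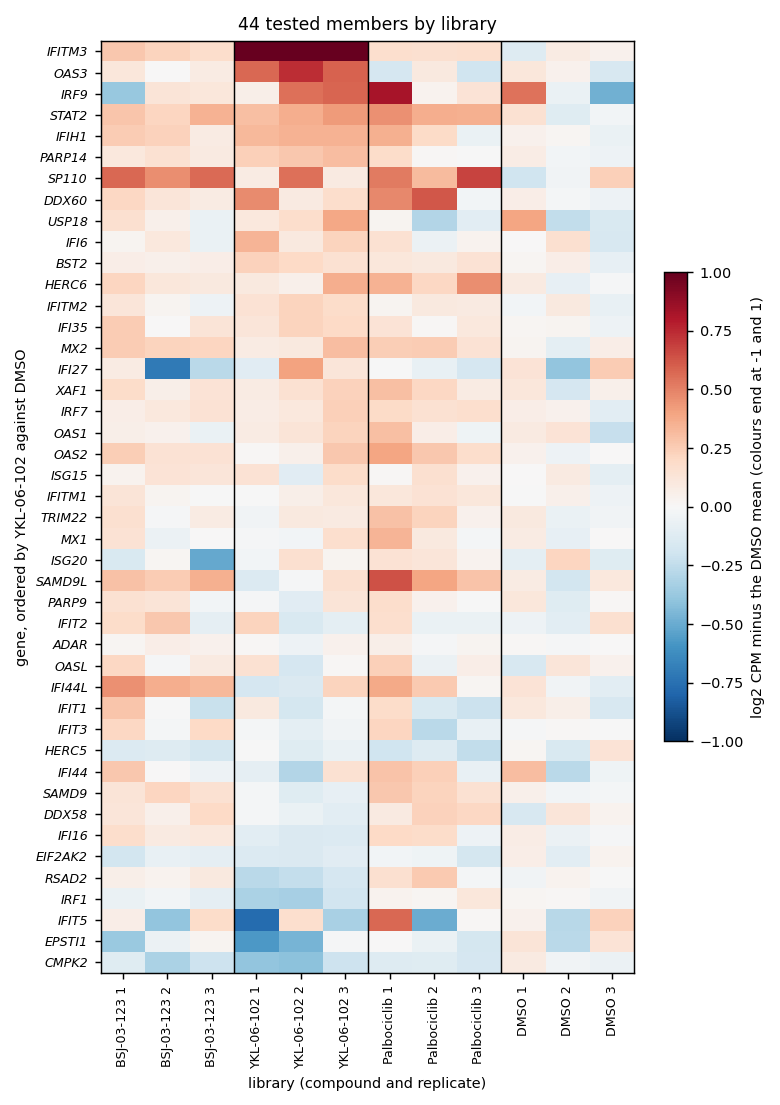
Log2 CPM of the 44 tested genes in each of the 12 libraries minus the gene's DMSO mean, with red above and blue below it; rows are ordered by YKL-06-102 against DMSO and the colours end at -1 and 1. IFITM3 and OAS3 are red in all 3 YKL-06-102 libraries, CMPK2 and IRF1 are blue there, and the low-level genes IRF9, IFI27 and IFIT5 differ within groups.

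Libraries of a group did not all have the same member level. The median over the 44 members of the log2 level relative to the DMSO mean was 0.14, 0.05 and 0.08 in the BSJ-03-123 libraries, 0.04, 0.06 and 0.15 in the YKL-06-102 libraries, 0.18, 0.10 and 0.03 in the Palbociclib libraries and 0.06, -0.03 and -0.02 in the DMSO libraries. BSJ-03-123 replicate 2, YKL-06-102 replicate 1 and Palbociclib replicate 3 lay below DMSO replicate 1, so the medians of each compound overlapped those of DMSO.

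At the same dose and time the compounds were compared with each other in 3 pairs, which do not use the DMSO level. The pairs share libraries, so similar values among them are not independent. Both pairs with YKL-06-102 use the same 3 YKL-06-102 libraries. YKL-06-102 and Palbociclib differed in 12 members, 4 higher (9.09%) and 8 lower (18.2%) with YKL-06-102, where 12.7% and 11.9% of all tested genes were called. IFITM3, with 18.2, 17.1 and 17.6 CPM with YKL-06-102 against 8.60, 8.56 and 8.62 CPM with Palbociclib, was the most different member (1.04 ± 0.072, 95% interval 0.89 to 1.19, edgeR adjusted p = 4.48e-12). OAS3 had 9.98, 11.2 and 10.1 CPM with YKL-06-102 against 5.93, 7.15 and 5.78 CPM with Palbociclib (0.73 ± 0.096, interval 0.53 to 0.92, edgeR adjusted p = 9.29e-07). Neither gene's groups overlapped. PARP14 had 59.3, 60.6 and 62.2 CPM with YKL-06-102 against 57.0, 50.7 and 50.04 CPM with Palbociclib (0.20 ± 0.047, edgeR adjusted p = 0.00159). IFITM2, with 254.6, 269 and 262 CPM with YKL-06-102 against 234, 246 and 245.5 CPM with Palbociclib, was higher by 0.12 ± 0.041 and was lost without YKL-06-102 replicate 2 (0.12), Palbociclib replicate 1 (0.11) or Palbociclib replicate 3 (0.13).

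The members lower with YKL-06-102 than with Palbociclib were SAMD9L, RSAD2, IRF1, SAMD9, IFI16, DDX58, CMPK2 and OAS2. SAMD9L had 14.4, 15.7 and 17.7 CPM with YKL-06-102 against 24.6, 20.8 and 19.3 CPM with Palbociclib (-0.44 ± 0.085, edgeR adjusted p = 2.02e-04). SAMD9 had 49.1, 45.9 and 47.2 CPM with YKL-06-102 against 60.1, 58.2 and 55.4 CPM with Palbociclib (-0.29 ± 0.044, edgeR adjusted p = 8.55e-06). IRF1 had 32.2, 31.9 and 35.1 CPM with YKL-06-102 against 41.0, 40.6 and 43.4 CPM with Palbociclib (-0.33 ± 0.048, edgeR adjusted p = 4.13e-06). In these 3 genes all YKL-06-102 libraries were below all Palbociclib libraries, and the calls held under all 14 alternatives, as did those of IFITM3, OAS3 and PARP14. RSAD2, the antiviral enzyme viperin, had 5.93, 6.05 and 6.38 CPM with YKL-06-102 against 8.04, 8.65 and 7.08 CPM with Palbociclib (-0.38 ± 0.094, edgeR adjusted p = 0.00321), lost without Palbociclib replicate 2 (-0.29). IFI16, a DNA sensor, differed by -0.25 ± 0.065 (edgeR adjusted p = 0.0053) and was lost without Palbociclib replicate 1 (-0.18) or 2 (-0.19). DDX58 (-0.24 ± 0.087), CMPK2 (-0.20 ± 0.068) and OAS2 (-0.17 ± 0.062, with overlapping groups) were called in 5, 7 and 8 of the 14 alternatives. Leaving out single libraries gave -0.27 to -0.19 for DDX58 (lost without any 1 of the 6), -0.21 to -0.14 for CMPK2 where it was lost (YKL-06-102 replicate 1 or 2, or any Palbociclib library) and -0.16 to -0.09 for OAS2 where it was lost (replicate 1 or 2 of either compound). STAT2 and IRF7 did not pass the test, with 95% intervals of -0.13 to 0.07 for both.

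BSJ-03-123 and YKL-06-102 also differed in 12 members, 6 higher (13.6%) and 6 lower (13.6%) with BSJ-03-123, where 9.74% and 10.4% of all tested genes were called. IFITM3 had 9.27, 8.94 and 8.67 CPM with BSJ-03-123 against 18.2, 17.1 and 17.6 CPM with YKL-06-102 (-0.98 ± 0.073, 95% interval -1.13 to -0.83, edgeR adjusted p = 2.9e-11). OAS3 had 7.22, 6.69 and 7.07 CPM with BSJ-03-123 against 9.98, 11.2 and 10.1 CPM with YKL-06-102 (-0.58 ± 0.096, edgeR adjusted p = 4.27e-05). BST2 had 231, 229 and 232 CPM with BSJ-03-123 against 259, 253 and 245 CPM with YKL-06-102 (-0.13 ± 0.034, edgeR adjusted p = 0.00547). All 3 were lower in every BSJ-03-123 library. PARP14 (-0.16 ± 0.048) and IFITM2 (-0.15 ± 0.041) were lower too, both lost without BSJ-03-123 replicate 3 (-0.15 and -0.12). IFI6, with 23.0, 24.2 and 21.4 CPM with BSJ-03-123 against 28.6, 24.1 and 26.3 CPM with YKL-06-102, had overlapping groups and was called in 7 of 14 alternatives (-0.20 ± 0.074, lost without replicate 1 or 3 of either compound, -0.23 to -0.16).

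Higher with BSJ-03-123 than with YKL-06-102 were IFI44L, RSAD2, SAMD9L, IFI16, SAMD9 and IRF1. SAMD9 had 54.4, 57.8 and 55.2 CPM with BSJ-03-123 against 49.1, 45.9 and 47.2 CPM with YKL-06-102 (0.24 ± 0.045, edgeR adjusted p = 2.23e-04), and IRF1 had 38.3, 39.3 and 37.7 CPM with BSJ-03-123 against 32.2, 31.9 and 35.1 CPM with YKL-06-102 (0.22 ± 0.050, edgeR adjusted p = 0.00166). These 2 calls and those of IFITM3, OAS3 and BST2 held under all 14 alternatives. IFI44L had 4.86, 4.54 and 4.43 CPM with BSJ-03-123 against 3.11, 3.15 and 4.12 CPM with YKL-06-102 (0.41 ± 0.14, edgeR adjusted p = 0.0303). IFI16 had 22.1, 20.8 and 21.0 CPM with BSJ-03-123 against 18.2, 17.6 and 17.7 CPM with YKL-06-102 (0.25 ± 0.066, edgeR adjusted p = 0.00612). The groups did not overlap in either gene. SAMD9L, with 19.4, 18.9 and 20.3 CPM with BSJ-03-123 against 14.4, 15.7 and 17.7 CPM with YKL-06-102, was higher by 0.29 ± 0.088, and RSAD2, with 7.47, 7.36 and 7.68 CPM with BSJ-03-123 against 5.93, 6.05 and 6.38 CPM with YKL-06-102, by 0.29 ± 0.096. Single libraries decided 4 of these: IFI16 was lost without BSJ-03-123 replicate 1 (0.21), SAMD9L without BSJ-03-123 replicate 1 (0.27) or 3 (0.26) or YKL-06-102 replicate 1 (0.20) or 2 (0.26), RSAD2 without any 1 of the 6 (0.25 to 0.30) and IFI44L without any 1 except YKL-06-102 replicate 3 (0.32 to 0.44). STAT2 and IRF7 did not pass the test (95% intervals -0.19 to 0.02 and -0.14 to 0.07).

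BSJ-03-123 and Palbociclib differed in 0 members by the edgeR quasi-likelihood test, where 0.155% of all tested genes, 22 in number and all higher with BSJ-03-123, were called. At an unadjusted p below 0.05, 2 members differed by edgeR, 2 by limma-voom and 0 by DESeq2, and the other tools also called 0 after adjustment. The 2 by edgeR were STAT2, with 75.5, 72.3 and 79.3 CPM with BSJ-03-123 against 85.4, 80.1 and 79.9 CPM with Palbociclib, and IRF1, with 38.3, 39.3 and 37.7 CPM with BSJ-03-123 against 41.0, 40.6 and 43.4 CPM with Palbociclib. Both were lower in every BSJ-03-123 library, STAT2 by a log2 difference of -0.11 ± 0.052 (95% interval -0.22 to -0.01, edgeR adjusted p = 0.577) and IRF1 by -0.12 ± 0.048 (-0.22 to -0.02, edgeR adjusted p = 0.513). IFITM3 differed by 0.06 (-0.11 to 0.23), OAS3 by 0.15 (-0.07 to 0.37) and IRF7 by -0.07 (-0.17 to 0.04). Of the 44 members 40 had an interval within 1.5-fold, against 36 for BSJ-03-123 with YKL-06-102 and 35 for YKL-06-102 with Palbociclib. With p-values adjusted over the 6 contrasts together, the counts between compounds were the same, 4 and 8, 6 and 6, and 0 and 0. Over all tested genes the calls for BSJ-03-123 against Palbociclib did change, to 257 higher and 154 lower in place of 22 and 0.

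**Figure D4:**
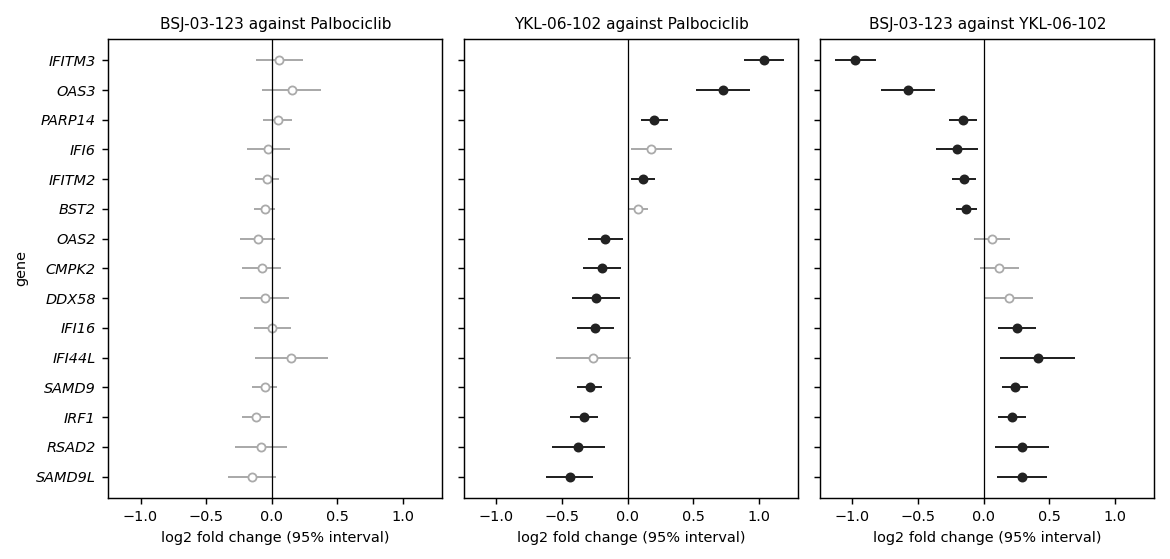
Log2 fold change with its 95% interval of the 15 genes called in at least 1 pair of compounds, in BSJ-03-123 against Palbociclib, YKL-06-102 against Palbociclib and BSJ-03-123 against YKL-06-102; filled points passed the edgeR test at an adjusted p below 0.05. With BSJ-03-123 against Palbociclib 0 points are filled, and IFITM3 (1.04 and -0.98) and OAS3 (0.73 and -0.58) lie farthest from 0 in the pairs with YKL-06-102.

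**Figure D5:**
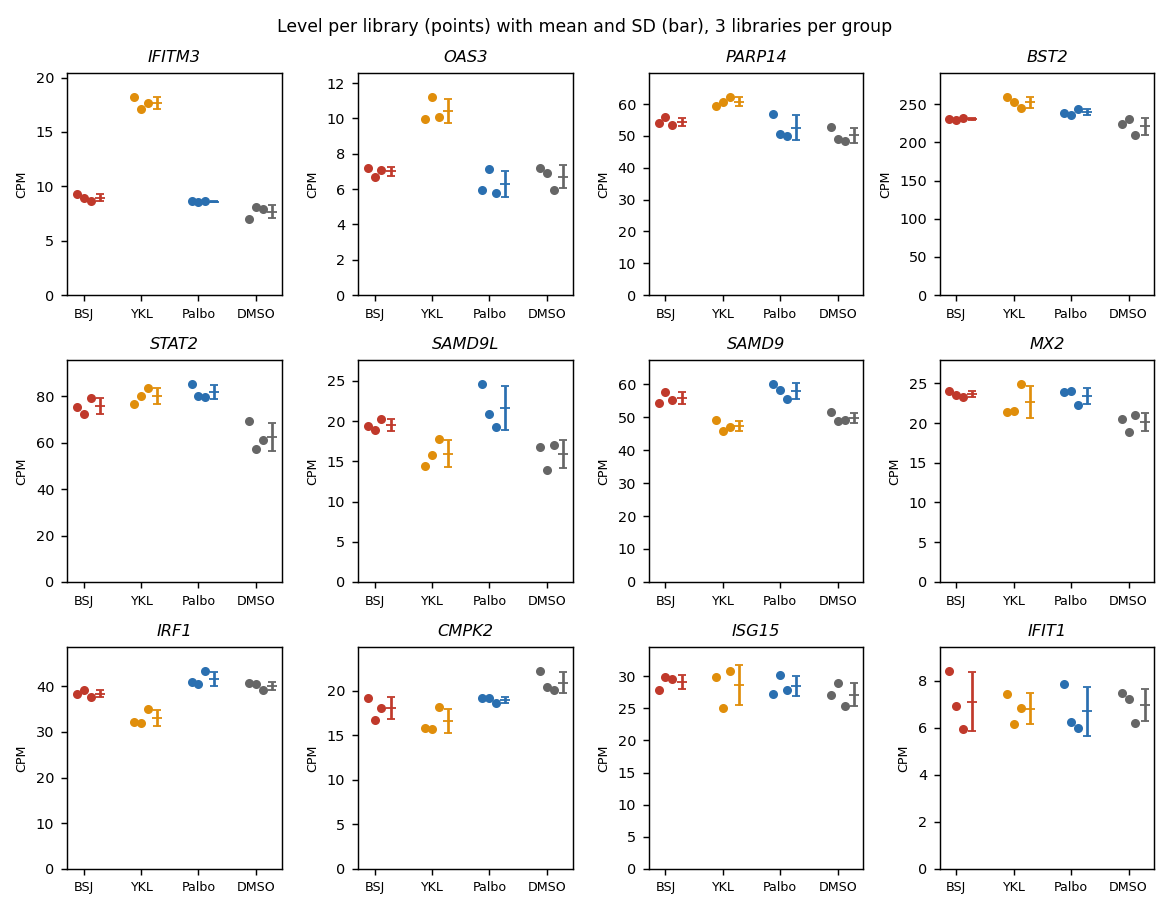
CPM of 12 genes in each of the 3 libraries per group, with the mean and SD beside the points and each axis starting at 0; BSJ, YKL and Palbo stand for BSJ-03-123, YKL-06-102 and Palbociclib. IFITM3 and OAS3 are separated with YKL-06-102, STAT2 is above DMSO with each compound, IRF1 is lowest with YKL-06-102, and ISG15 and IFIT1 overlap in all groups.

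Other genes of interferon signalling were counted from lists named by role. Of 21 interferon genes 0 reached the level for testing: 17 had no read in any of the 12 libraries, and the others, IFNA2, IFNA8, IFNB1 and IFNL1, had at most 3 reads in a library. A count of 0 in a library still allows an expected count of up to 3 there, so the ligands were at or near the limit of this depth in all groups. The receptors and kinases were present, with the type I receptor chain IFNAR1 at 70.9, 68.7 and 72.3 CPM with BSJ-03-123, 66.2, 68.0 and 64.8 CPM with YKL-06-102, 71.8, 71.1 and 73.5 CPM with Palbociclib and 68.4, 64.4 and 70.7 CPM with DMSO. IFNAR1, IFNAR2 and TYK2 did not pass the test against DMSO with any compound. In that list, with 8 genes tested, 3 rose with BSJ-03-123, 2 rose with YKL-06-102, 4 rose with Palbociclib, and 0 fell. They included the gamma receptor chain IFNGR1 with BSJ-03-123 (0.19 ± 0.044) and Palbociclib (0.26 ± 0.044), IL10RB, a chain of the type III receptor, with the same compounds (0.22 ± 0.058 and 0.21 ± 0.057), and JAK2 with YKL-06-102 (0.23 ± 0.059).

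Of 7 STAT and IRF genes outside the member list 3 rose with BSJ-03-123, 4 rose with YKL-06-102, 5 rose with Palbociclib, and 0 fell. The shares higher were 42.9%, 57.1% and 71.4%, beside 12.4%, 15.6% and 15.6% of all tested genes. Of all tested genes 15.7%, 21.3% and 17.6% fell. STAT3, which serves other cytokines such as interleukin 6, rose with each compound, by 0.36 ± 0.040 for BSJ-03-123, 0.39 ± 0.040 for YKL-06-102 and 0.38 ± 0.040 for Palbociclib. IRF5, a factor downstream of Toll-like receptors, rose by 0.25, 0.33 and 0.28 with the compounds in the same order (0.18 with Palbociclib without its replicate 3), and IRF2, an antagonist of IRF1, by 0.26 with YKL-06-102 and 0.18 with Palbociclib. Without DMSO replicate 2 the list's counts were 4, 5 and 5 higher, and those of the receptors and kinases 3, 2 and 4, in the same order.

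Among 13 tested genes of nucleic acid sensing 7 rose with BSJ-03-123, 6 rose and 1 fell with YKL-06-102, and 7 rose with Palbociclib. The shares higher were 53.8%, 46.2% and 53.8%, beside 12.4%, 15.6% and 15.6% of all tested genes. The share lower with YKL-06-102 was 7.69%, beside 21.3%. Without DMSO replicate 2 the counts were 8 higher in each case, with 1 lower for YKL-06-102. TMEM173, which encodes STING, had 156, 153 and 158 CPM with BSJ-03-123, 184, 187 and 182 CPM with YKL-06-102, 150.3, 151 and 152 CPM with Palbociclib and 131, 131 and 122 CPM with DMSO. All compound libraries exceeded DMSO (0.28 ± 0.034, 0.52 ± 0.033 and 0.24 ± 0.033). SAMHD1, which depletes nucleotides, rose by 0.29, 0.45 and 0.29 with the compounds in the same order. The kinase IKBKE, which phosphorylates interferon regulatory factors, moved in opposite directions. It had 82.6, 83.5 and 83.4 CPM with BSJ-03-123, 57.3, 54.5 and 56.4 CPM with YKL-06-102, 83.6, 83.0 and 83.3 CPM with Palbociclib and 65.2, 64.3 and 63.0 CPM with DMSO. Against DMSO this was 0.37 ± 0.037 (edgeR adjusted p = 4.21e-09), -0.20 ± 0.038 (edgeR adjusted p = 1.44e-04) and 0.38 ± 0.037 (edgeR adjusted p = 2.69e-09). The difference itself was -0.57 ± 0.037 for YKL-06-102 against Palbociclib (edgeR adjusted p = 8.52e-13) and 0.57 ± 0.037 for BSJ-03-123 against YKL-06-102 (edgeR adjusted p = 1.87e-12).

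Genes linked to interferon gamma numbered 13, of which 1 rose with BSJ-03-123, 5 rose with YKL-06-102, 4 rose with Palbociclib, and 0 fell. The shares higher were 7.69%, 38.5% and 30.8%, beside 12.4%, 15.6% and 15.6% of all tested genes. Of all tested genes 15.7%, 21.3% and 17.6% fell. CIITA, the master regulator of MHC class II genes, had 39.0, 39.5 and 42.8 CPM with BSJ-03-123, 60.7, 63.6 and 63.1 CPM with YKL-06-102, 42.0, 38.4 and 34.8 CPM with Palbociclib and 36.5, 35.2 and 39.8 CPM with DMSO. Only its YKL-06-102 libraries stood apart (0.75 ± 0.056 against DMSO, edgeR adjusted p = 8.45e-12). It also exceeded Palbociclib (0.70 ± 0.055, edgeR adjusted p = 6.45e-11), and BSJ-03-123 was below YKL-06-102 (-0.63 ± 0.055, edgeR adjusted p = 9.92e-10). The chemokine gene CXCL10 was near the lower limit of the data, with 0.652, 0.383 and 0.471 CPM with BSJ-03-123, 0.777, 0.853 and 1.11 CPM with YKL-06-102, 0.244, 0.441 and 0.193 CPM with Palbociclib and 0.523, 0.403 and 0.380 CPM with DMSO. It was higher with YKL-06-102 than with DMSO (1.07 ± 0.32, edgeR adjusted p = 0.00855), a call lost with DESeq2 and without YKL-06-102 replicate 3 (0.92 to 1.21 over all runs with a library left out). The adhesion gene ICAM1, which NF-kappaB also drives, rose with all compounds, by 0.47 for BSJ-03-123, 0.52 for YKL-06-102 and 0.53 for Palbociclib. The myeloid markers given above did not all move alike against DMSO. CSF1R, named after its values were seen, had the largest called increase with each compound. It had 94.4, 89.7 and 91.3 CPM with BSJ-03-123, 142, 143 and 145.5 CPM with YKL-06-102, 92.2, 90.3 and 84.9 CPM with Palbociclib and 64.5, 60.8 and 63.4 CPM with DMSO. CD33 also rose with each compound, FLT3 with BSJ-03-123 and Palbociclib only, and LYZ with YKL-06-102 and Palbociclib only. SPI1, MPO and CEBPA rose with YKL-06-102 only, and ITGAM passed with no compound. Between compounds, CSF1R, SPI1, MPO, LYZ, CD33 and CEBPA were higher with YKL-06-102 than with Palbociclib, and FLT3 was lower. The shares were 75.0% and 12.5%, beside 12.7% and 11.9% of all tested genes. With BSJ-03-123 against YKL-06-102, FLT3 was higher and CSF1R, SPI1, MPO, LYZ and CD33 were lower. These shares were 12.5% and 62.5%, beside 9.74% and 10.4%.

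Among 10 negative regulators of the pathway 1 rose with BSJ-03-123, 2 rose and 2 fell with YKL-06-102, and 1 rose and 1 fell with Palbociclib. The shares higher were 10.0%, 20.0% and 10.0%, beside 12.4%, 15.6% and 15.6% of all tested genes. Those lower with YKL-06-102 and Palbociclib were 20.0% and 10.0%, beside 21.3% and 17.6%. SOCS3, a feedback inhibitor of JAK kinases, had 8.42, 9.47 and 7.87 CPM with BSJ-03-123, 11.6, 11.0 and 12.8 CPM with YKL-06-102, 8.32, 7.64 and 7.75 CPM with Palbociclib and 6.80, 8.02 and 6.72 CPM with DMSO. It rose with YKL-06-102 (0.71 ± 0.093, edgeR adjusted p = 5.25e-07) and did not pass the test with the other compounds. PTPN6, which encodes the phosphatase SHP-1, rose by 0.20, 0.19 and 0.20 with BSJ-03-123, YKL-06-102 and Palbociclib. IRF2BP1, a corepressor of IRF2, fell with YKL-06-102 (-0.24 ± 0.057), a call made in all 14 alternatives with a value of -0.12 without DMSO replicate 2. PIAS4 fell with YKL-06-102 (-0.13 ± 0.048) and Palbociclib (-0.14 ± 0.048), calls made in 6 and 9 of 14 alternatives. Among other settings, the PIAS4 calls were lost without DMSO replicate 2, with YKL-06-102 also without any 1 of its libraries and with Palbociclib without its replicate 3 (-0.17 to -0.03 and -0.19 to -0.06 over all runs with a library left out). Without DMSO replicate 2 the counts were 2 higher with BSJ-03-123, 2 higher and 1 lower with YKL-06-102, and 1 higher with Palbociclib, for the negative regulators, and 3, 6 and 4 higher for the genes linked to interferon gamma.

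The counts of these lists moved by more than 1.5 times in some alternatives. With library totals alone, 5 receptors and kinases were higher with BSJ-03-123 (in place of 3) and 7 with Palbociclib (in place of 4), 5 STAT and IRF genes and 5 myeloid line markers with BSJ-03-123 (in place of 3 each), and 3 genes linked to interferon gamma and 3 negative regulators with BSJ-03-123 (in place of 1 each). The 5 genes linked to interferon gamma that rose with YKL-06-102 became 3 with DESeq2 and without DMSO replicate 1, DMSO replicate 3 or YKL-06-102 replicate 3. For Palbociclib the 4 of that list became 2 with DESeq2, with adjustment over the 6 contrasts and without Palbociclib replicate 1, and 1 in a fit of the 2 groups and without DMSO replicate 1, DMSO replicate 3 or Palbociclib replicate 2; the 1 with BSJ-03-123 became 2 without DMSO replicate 3. The 4 receptors and kinases with Palbociclib became 2 with DESeq2, in a fit of the 2 groups and without DMSO replicate 1, Palbociclib replicate 1 or Palbociclib replicate 2, and the 2 with YKL-06-102 became 1 without DMSO replicate 1 or 3. Among lower genes, the 2 negative regulators with YKL-06-102 became 1 in 8 of 14 alternatives, the 1 with Palbociclib became 0 or 2 in 8 of 14, and 0 became 1 for STAT and IRF genes with YKL-06-102 without DMSO replicate 3 and for nucleic acid sensing with BSJ-03-123 without its replicate 3.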

How the data were processed

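RNA was sequenced from 12 MV4-11 libraries in 4 groups of 3. The authors deposited raw read counts per gene. Per the submitters' processing notes, Trimmomatic 0.36, STAR 2.5.2b and HTSeq were used with hg38. No annotation release, strand setting or HTSeq version is given in the sources used here. Per the labels' protocols, libraries were made with a stranded TruSeq mRNA kit. GENCODE 29 named 57447 of 58051 gene IDs and supplied coordinates and exon lengths.

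The deposited counts were scaled by TMM factors and fitted with edgeR 4.0.16 (R 4.3.3), all 12 libraries in one quasi-likelihood model with group as the only term and 8 residual degrees of freedom. Genes were kept by filterByExpr with a minimum count of 10 (total 15), and p-values were adjusted by Benjamini-Hochberg over the 14214 tested genes of a contrast, called below 0.05. Members and lists were counted from these calls, with no test of a list. SE is the absolute log2 fold change divided by the square root of F, and fold changes use a prior count of 0.125. The fit was tested on simulated counts. The 14 alternatives per contrast were DESeq2 1.42.0, limma-voom (limma 3.58.1), other scaling (DESeq2 size factors, library totals), no filter, a replicate block, adjustment over 6 contrasts, a fit of 2 groups, and leaving out each replicate. The members, lists and comparisons were chosen with earlier results of these data known.

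Values per library are given for called members whose average log2 CPM was 2 or more (up to 6 highest and 6 lowest against DMSO, 4 and 4 between compounds), and for STAT2, IRF1, IRF7 and IRF9. Of the other lists, up to 5 called genes per list and contrast with the largest changes could be named; BST2, ISG15, IFIT1, MX1, IFITM1, ADAR, IFNAR1, CSF1R and ITGA2B were added after their values were seen. Results of some listed genes are not reported here. Library totals of 18764307 to 25539858 counts limit the precision of low genes, and the common biological coefficient of variation was 3.08%.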

Additional observations from a re-analysis of the deposited data

How the results depend on the processing

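The depth limits what can be said of the 7 members under an average log2 CPM of 2. No log2 fold change of a called member, nor those of STAT2, IRF1 and IRF7 against DMSO, changed sign in any alternative: of these, 731 values stayed on the same side of the threshold, 122 lost a call and 1 gained one. Nearly all of these values were picked because they were called, so few could gain a call. Members that had not been called did gain calls, such as IFITM3, PARP14 and BST2 with BSJ-03-123 when library totals were used. Other values near 0 that had not passed did change sign with a library left out, such as those of IRF9 with BSJ-03-123 (-0.33 to 0.26) and of OASL (-0.08 to 0.09) and SAMD9L (-0.06 to 0.10) with YKL-06-102. Counts of members moved by more than 1.5 times as follows. For BSJ-03-123 against DMSO, 6 higher became 14 with library totals and 3 to 7 with a replicate left out, and 1 lower became 0 with library totals or DESeq2 and 0 to 2 with a replicate left out. For Palbociclib against DMSO, 0 lower became 0 to 1 with a replicate left out. For YKL-06-102 against Palbociclib, 4 higher became 7 in a fit of these 2 groups, and 8 lower became 5 with DESeq2 and 3 to 7 with a replicate left out. For BSJ-03-123 against YKL-06-102, 6 higher became 2 to 5 and 6 lower became 3 to 6 with a replicate left out. The cause was not tested. The counts for YKL-06-102 against DMSO (12 and 3) and of higher members for Palbociclib (12) stayed within 1.5 times under all alternatives. Equal replicate numbers did not pair the libraries across all groups: over 10347 genes, 2 of 18 same-numbered pairs of deviations from the group means had a correlation above 0.1 (-0.16 to 0.23, against -0.21 to 0.18 for other pairs). Both were between DMSO and BSJ-03-123, whose same-numbered pairs had 0.09, 0.23 and 0.20 and whose other pairs had -0.21 to 0.05. A pairing of those 2 groups is not excluded. With the replicate number as a block, the counts were again 6 and 1, 12 and 3, and 12 and 0 against DMSO for BSJ-03-123, YKL-06-102 and Palbociclib, and 0 and 0, 4 and 8, and 6 and 6 between compounds.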
